A study of Mus musculus with 41 samples.

Results

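A set of 10 genes that mark the hepatocytes around the central vein, or that Wnt signalling is known to drive there, were followed through mouse liver and liver tumours. They are Cyp2e1, Cyp1a2, Glul, Oat, Axin2, Lgr5, Rgn, Rnf43, Tbx3 and Slc1a2. They were taken by symbol from a table of 24511 genes, and all 10 were found and passed the filter on low values. The samples were bulk polyA RNA of liver and liver tumour tissue from male C57BL/6 mice, and 35 libraries in 11 groups were used. Values are regularized log2 (rlog2) values, on which a difference of 1 is a 2-fold change, and the sequencing depth behind them is unknown.

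The groups were named by genotype and stage, and the names are kept as the labels spell them. Livers marked NC, which the labels call healthy and do not explain further, came from B6, MupHe, IgAkMup and CD8kMup mice. Mice on a high-fat diet (HFD) gave 3 kinds of tissue. These were a fatty liver called healthy, termed HFD control here (B6 and IgAkCLM), non-alcoholic steatohepatitis or NASH (MupHe and IgAkMup), and hepatocellular carcinoma or HCC (MupHe, IgAkMup and CD8kMup). Each group had 3 libraries except MupHe HCC and IgAkMup HCC, which had 4 each. As background, mice with a Mup element are known from MUP-uPA animals, in which a major urinary protein promoter drives urokinase in hepatocytes, but the labels used here do not spell out any of the genotype names. The ages of the mice are not stated in the labels. Igha was not among the genes of the table, and Cd8a averaged 3.80 ± 0.43 (SD, n = 3) in CD8kMup NC, 3.81 ± 0.33 (SD, n = 3) in CD8kMup HCC and 3.93 ± 0.26 (SD, n = 4) in MupHe HCC. At these low levels the genotype names could not be checked against a targeted gene. Whether the replicates came from different animals is not stated, so the p-values measure only the spread among these samples, which may be technical.

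Hepatocytes of the liver lobule differ along the path of the blood, from periportal cells at its entry to pericentral cells around the central vein. Endothelial cells of the central vein release Wnt2, Wnt9b and the R-spondin Rspo3, which keep beta-catenin active in the hepatocytes next to them. Those hepatocytes make glutamine and carry much of the cytochrome P450 metabolism of drugs and ethanol. Wnt signalling also switches on its own regulators, and 3 of the 10 genes belong to that loop. Axin2 is a scaffold that promotes the breakdown of beta-catenin. Rnf43 is a ubiquitin ligase that removes Frizzled receptors from the membrane. Lgr5 is a receptor for R-spondins.

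The sequence before the start site was examined because the genes moved together across the tissues. RefSeq promoter windows of the GRCm38.p6 build, which is the mm10 genome, were found for 7 of the 10 genes, with 8 windows in all because Rnf43 had 2. Lgr5, Rgn and Tbx3 had none. The 250 bases before each start site were searched on both strands for 4 words that TCF and LEF factors are known to bind. Of 32851 windows of the same length in the RefSeq table, the word CTTTGAT was found in 3.2%, the word CTTTGAA in 4.5%, the word CTTTGTT in 5.0% and the word CTTTGTA in 3.2%, and 14.8% held at least 1 of the 4. The words are equally long and differ in their last letters, so 2 of them cannot match at the same position of a strand. Of the 8 windows, 3 held a word, those of Cyp2e1, Cyp1a2 and Slc1a2. In Cyp2e1 (chr7:140763569-140763818, plus strand) CTTTGAA began 135 bases before the start site on the strand of the gene. In Cyp1a2 (chr9:57683656-57683905, minus strand) CTTTGAA lay on the opposite strand, and its first base in the printed sequence was 244 bases before the start. The start sites of the Slc1a2 and Axin2 windows lie inside these genes. In Slc1a2 (chr2:102706188-102706437, plus strand) CTTTGAT lay on the opposite strand, 207 bases before the start site. The bases after this start site were not found near the start of any Slc1a2 transcript of the GENCODE annotation, in either direction. Those of the other windows were found there, so the Slc1a2 start site alone remained unchecked. The windows of Axin2 (chr11:108920099-108920348, plus strand) and Glul (chr1:153899679-153899928, plus strand) are shown beside them as windows without any of these words. All are printed 5′ to 3′ on the strand of the gene, and capitals mark the word or its reverse complement.
Cyp2e1: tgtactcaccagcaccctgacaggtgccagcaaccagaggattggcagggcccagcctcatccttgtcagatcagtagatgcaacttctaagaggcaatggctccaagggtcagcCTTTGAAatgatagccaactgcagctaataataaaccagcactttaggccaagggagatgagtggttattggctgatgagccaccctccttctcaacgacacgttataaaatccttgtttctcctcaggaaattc
Cyp1a2: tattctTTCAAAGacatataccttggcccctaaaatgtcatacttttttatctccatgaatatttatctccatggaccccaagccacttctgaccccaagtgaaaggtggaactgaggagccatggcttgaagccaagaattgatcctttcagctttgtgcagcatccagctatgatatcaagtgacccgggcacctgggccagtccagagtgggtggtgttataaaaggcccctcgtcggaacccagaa
Slc1a2: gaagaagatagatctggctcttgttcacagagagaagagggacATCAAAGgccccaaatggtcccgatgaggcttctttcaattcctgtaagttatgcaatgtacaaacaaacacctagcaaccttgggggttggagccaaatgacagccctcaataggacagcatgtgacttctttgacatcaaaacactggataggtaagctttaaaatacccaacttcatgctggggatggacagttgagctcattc
Axin2: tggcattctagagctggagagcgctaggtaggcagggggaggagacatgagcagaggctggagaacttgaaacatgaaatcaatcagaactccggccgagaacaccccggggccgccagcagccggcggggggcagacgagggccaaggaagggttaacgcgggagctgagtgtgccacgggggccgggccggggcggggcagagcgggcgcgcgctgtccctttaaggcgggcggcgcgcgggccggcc
Glul: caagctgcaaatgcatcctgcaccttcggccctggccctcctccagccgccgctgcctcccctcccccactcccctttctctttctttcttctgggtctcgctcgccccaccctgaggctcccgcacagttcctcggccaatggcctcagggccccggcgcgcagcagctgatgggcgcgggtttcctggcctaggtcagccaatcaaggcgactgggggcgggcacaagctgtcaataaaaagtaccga

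A match describes the letters of the window and shows no binding. The 3 genes with a word in this window and Axin2 and Glul without one were all lower in the tumours. By RefSeq annotation on GRCm38.p6, the 10 genes are protein-coding and lie on 7 autosomes and the X chromosome, with Axin2 and Rnf43 both on chromosome 11 and Cyp2e1 and Oat both on chromosome 7.

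In the tumours of MupHe and IgAkMup mice the 10 genes were lower than in NASH livers of the same genotypes. Averaged over both genotypes, all 10 fell past an adjusted p of 0.05 in limma's moderated test, where 22.9% of the 12337 genes tested were called lower. Their median difference was -2.73 on the log2 scale and the median of all genes tested was 0.01. The differences ran from -4.62 for Cyp2e1 to -0.97 for Rnf43. In MupHe HCC against MupHe NASH 10 of 10 were called lower, against 14.7% of all genes, and in 9 of them no tumour reached the lowest NASH library, which held for 14.8% of all genes. In IgAkMup HCC against IgAkMup NASH 9 of 10 were called lower, against 20.7% of all genes, and the groups did not overlap for any of the 10, where 19.6% of all genes were lower without overlap. In bulk tissue, fewer cells of a type and less RNA per cell cannot be told apart. The MupHe NASH and MupHe HCC libraries carry the tags Tri N and SS H in their column names, which the labels do not explain. Tag and stage therefore cannot be told apart in the MupHe contrast. The IgAkMup NASH and HCC libraries carry SS N and SS H.

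**Figure D1:**
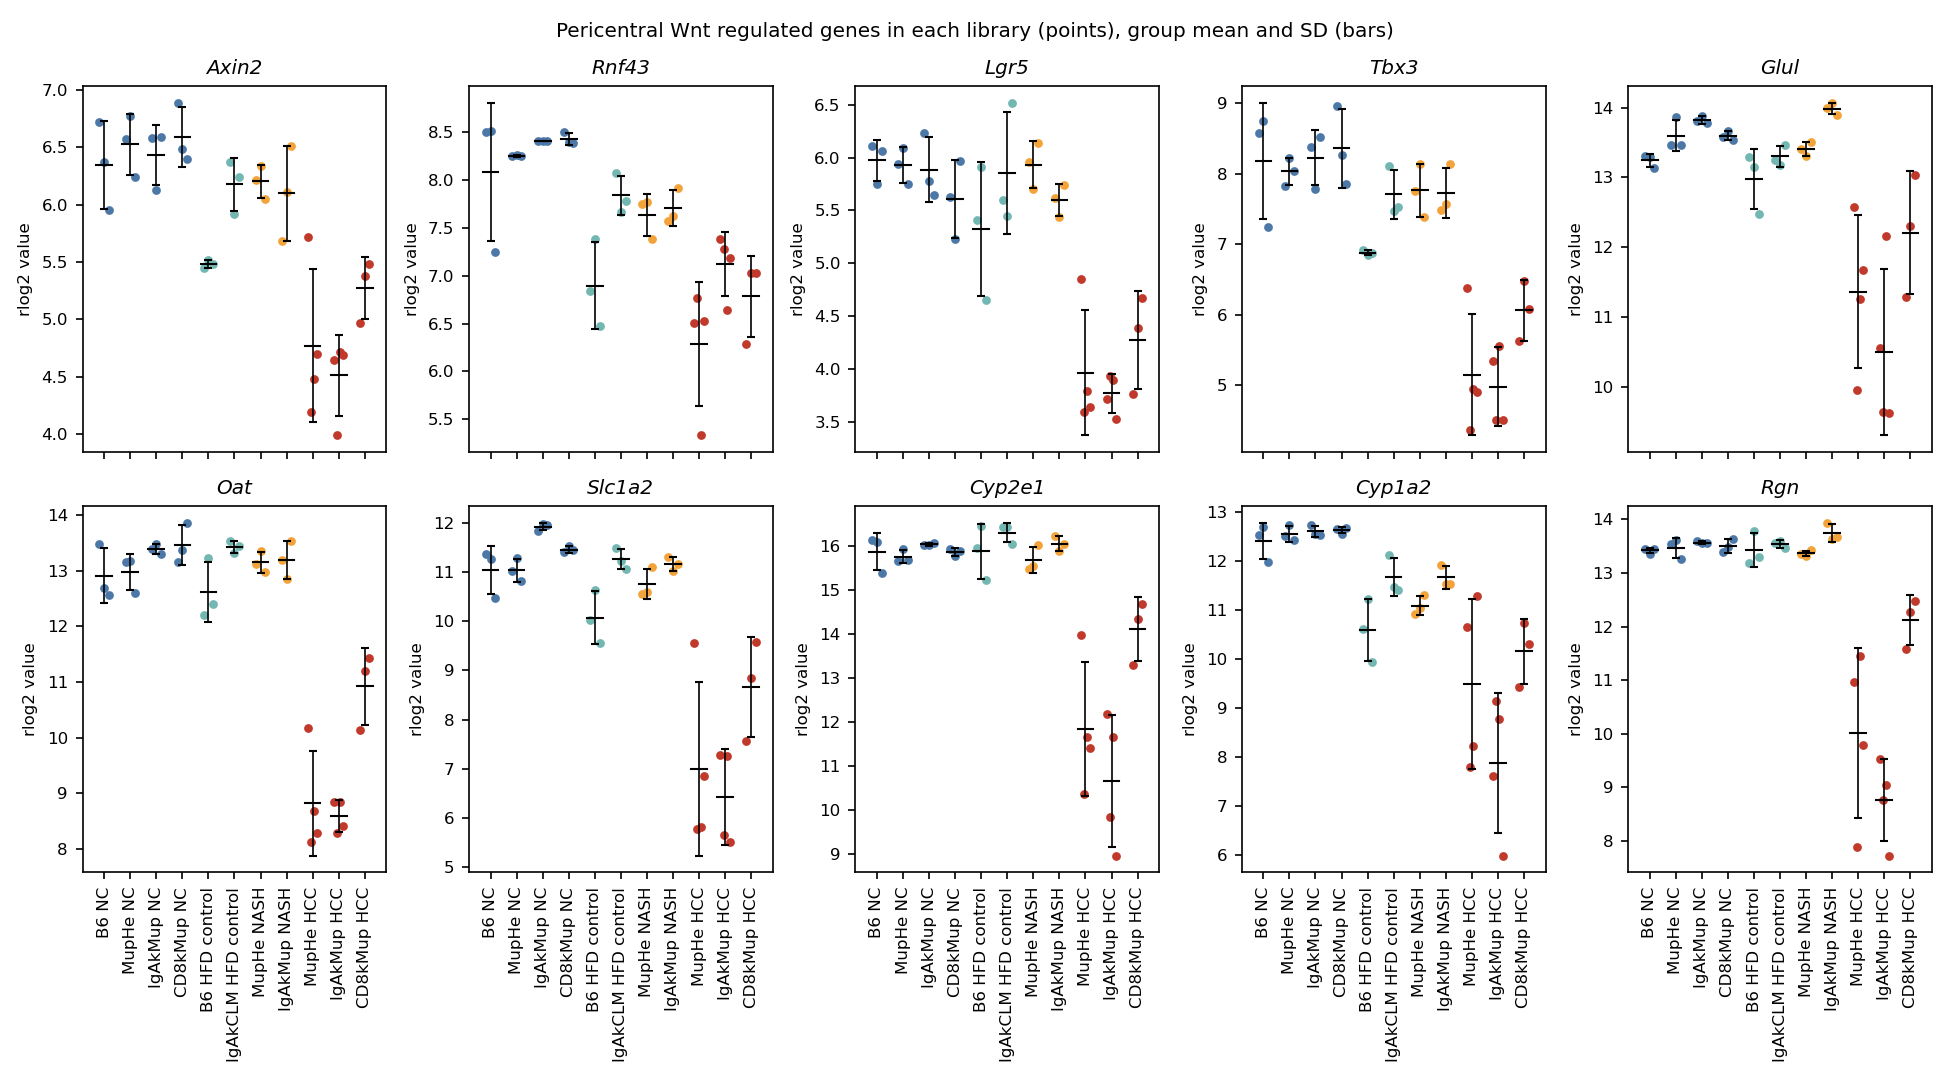
rlog2 value (y axis) of each of the 10 genes in every library (points), by group (x axis), with group mean and SD as bars (n = 3, or 4 for MupHe HCC and IgAkMup HCC). For Cyp2e1, Oat, Rgn and Tbx3 the 11 tumours lie below every other library, whereas Rnf43 has 2 tumours below the lowest liver.

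Among the regulators of the Wnt pathway, Axin2 stood at 6.22, 6.34 and 6.05 in MupHe NASH and at 5.68, 6.11 and 6.51 in IgAkMup NASH. The MupHe tumours measured 5.72, 4.19, 4.48 and 4.70, and the IgAkMup tumours 4.65, 3.99, 4.72 and 4.69. Every tumour was thus below the NASH livers of its genotype, with MupHe HCC 2, the tumour at 5.72, nearest to them. The limma difference was -1.43 ± 0.26 (SE, adjusted p = 0.000144) in MupHe and -1.59 ± 0.26 (SE, adjusted p = 1.96e-05) in IgAkMup. Lgr5 ran from 5.44 to 6.14 over the 6 NASH livers. The MupHe tumours had Lgr5 at 4.85, 3.59, 3.79 and 3.64, and the IgAkMup tumours at 3.72, 3.93, 3.90 and 3.53. Again the groups were separate, and MupHe HCC 2 was the highest of the 8. Lgr5 fell by 1.96 ± 0.29 (SE, adjusted p = 1.08e-05) on the log2 scale in MupHe and fell by 1.83 ± 0.29 (SE, adjusted p = 1.35e-05) in IgAkMup.

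Rnf43 was called lower in MupHe tumours and missed the threshold in IgAkMup tumours. It stood at 7.75, 7.77 and 7.38 in MupHe NASH and at 7.57, 7.63 and 7.92 in IgAkMup NASH. MupHe tumours had 6.51, 6.77, 5.33 and 6.53, all below the livers. IgAkMup tumours had 7.38, 7.28, 6.64 and 7.19, all below the lowest liver of that genotype, with IgAkMup HCC 8, at 6.64, the farthest from it. The difference was -1.35 ± 0.28 (SE, adjusted p = 0.000698) in MupHe and passed the test, and it was -0.58 ± 0.28 (SE, adjusted p = 0.0956) in IgAkMup and did not. The difference between these 2 contrasts was 0.77 ± 0.40 (SE, adjusted p = 0.226), so they were not shown to differ. Tbx3, a T-box repressor and a target of beta-catenin in liver, ran from 7.39 to 8.14 in the NASH livers. Its values were 6.38, 4.37, 4.94 and 4.91 in MupHe tumours and 5.35, 4.50, 5.56 and 4.51 in IgAkMup tumours. All 8 were below the lowest NASH liver. Tbx3 fell by 2.61 ± 0.38 (SE, adjusted p = 8.05e-06) in MupHe and fell by 2.75 ± 0.38 (SE, adjusted p = 1.96e-06) in IgAkMup.

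Glul, Oat and Slc1a2 act in glutamate and glutamine metabolism. Glul, glutamine synthetase, joins ammonia to glutamate in the last hepatocytes before the central vein. It measured 13.41, 13.31 and 13.50 in MupHe NASH and 13.99, 14.07 and 13.90 in IgAkMup NASH. MupHe tumours had 12.58, 9.95, 11.25 and 11.67, and IgAkMup tumours 10.55, 9.64, 12.16 and 9.62. Neither genotype's tumours reached its NASH livers, but the tumours of each genotype spread over more than 2 log2 units where the livers spread over less than 1. Glul fell by 2.05 ± 0.46 (SE, adjusted p = 0.00141) in MupHe and fell by 3.49 ± 0.46 (SE, adjusted p = 1.25e-06) in IgAkMup. Oat, ornithine aminotransferase, feeds the carbon of ornithine towards glutamate. It lay between 12.86 and 13.54 in NASH livers. The MupHe tumours had Oat at 10.18, 8.13, 8.68 and 8.28, and the IgAkMup tumours at 8.85, 8.28, 8.84 and 8.41. The 8 tumours were low together, and the differences of -4.33 ± 0.35 (SE, adjusted p = 9.76e-10) in MupHe and -4.60 ± 0.35 (SE, adjusted p = 3.33e-10) in IgAkMup had the smallest adjusted p of the 10 genes in each comparison. Slc1a2, a transporter that takes up glutamate, lay between 10.56 and 11.30 in NASH livers. MupHe tumours had 9.55, 5.78, 5.82 and 6.86, and IgAkMup tumours 7.28, 5.65, 7.25 and 5.51. The 1 tumour near the livers was MupHe HCC 2, at 9.55. Slc1a2 fell by 3.75 ± 0.58 (SE, adjusted p = 1.93e-05) in MupHe and fell by 4.74 ± 0.58 (SE, adjusted p = 3.75e-07) in IgAkMup.

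The 2 cytochrome P450 genes did not fall alike in MupHe tumours. Cyp2e1, which oxidizes ethanol and paracetamol, lay between 15.49 and 16.23 in NASH livers. It measured 13.97, 10.36, 11.66 and 11.40 in MupHe tumours and 12.18, 9.84, 11.65 and 8.96 in IgAkMup tumours. No tumour came within 1 log2 unit of a NASH liver. Cyp2e1 fell by 3.84 ± 0.59 (SE, adjusted p = 2.11e-05) in MupHe and fell by 5.40 ± 0.59 (SE, adjusted p = 7.62e-08) in IgAkMup. Cyp1a2, which metabolizes caffeine, had 10.92, 11.03 and 11.29 in MupHe NASH. The MupHe tumours had Cyp1a2 at 10.65, 7.79, 8.23 and 11.28, so that 2 tumours were near the livers or among them and 2 were far below. The difference was -1.59 ± 0.61 (SE, adjusted p = 0.047), just past the threshold. Without MupHe HCC 3 it was -1.03 (adjusted p = 0.188), without MupHe HCC 4 it was -1.17 (adjusted p = 0.155), and leaving out a MupHe NASH library also ended the call (adjusted p from 0.0823 to 0.135), as did the fit of the 2 groups alone (adjusted p = 0.233), array weights, quantile normalization and no filter on low values. In IgAkMup tumours Cyp1a2 was 7.61, 9.15, 8.77 and 5.99 against 11.92, 11.52 and 11.53 in NASH, a separate and larger difference of -3.77 ± 0.61 (SE, adjusted p = 1.77e-05). The difference between the genotypes' contrasts, -2.18 ± 0.86 (SE, adjusted p = 0.103), did not pass.

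Rgn, regucalcin, is a calcium-binding enzyme that is abundant in hepatocytes. It lay between 13.32 and 13.93 in the 6 NASH livers. The tumours had 10.96, 7.89, 11.45 and 9.79 in MupHe and 9.54, 8.77, 9.05 and 7.73 in IgAkMup. The groups were well apart in both genotypes. Rgn fell by 3.34 ± 0.46 (SE, adjusted p = 4.98e-06) in MupHe and fell by 4.97 ± 0.46 (SE, adjusted p = 8.12e-09) in IgAkMup.

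The 2 genotypes were compared directly through the difference of their tumour contrasts. The MupHe NASH libraries carry the tag Tri N in their column names and the IgAkMup NASH libraries SS N, while the tumours of both carry SS H, and the labels explain none of these. Genotype and tag therefore cannot be told apart in this comparison. With IgAkMup NASH in place of MupHe NASH, MupHe tumours still had 10 of 10 genes lower. None of the 10 genes passed in limma, where 10% of all genes did, and 3 had an unadjusted p under 0.05, namely Cyp1a2, Rgn and Glul, against 25.9% of all genes. Without MupHe HCC 3, these 3 passed, with differences of -2.75 for Cyp1a2 (adjusted p = 0.0167), -1.92 for Glul (adjusted p = 0.0226) and -2.34 for Rgn (adjusted p = 0.000745). Without IgAkMup HCC 7, Cyp1a2 alone passed, and without IgAkMup HCC 8, Glul alone. A larger fall in IgAkMup than in MupHe for these 3 genes therefore rested on which tumours were included.

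CD8kMup tumours were compared with CD8kMup NC livers, because no NASH group of this genotype was analysed here. All 10 genes were called lower, against 17% of all genes, and no tumour overlapped the NC livers for any of them, where 27.6% of all genes were lower without overlap. Their median difference was -1.70 and the differences ran from -2.80 for Slc1a2 to -1.32 for Axin2. Oat stood at 10.14, 11.20 and 11.44 in these tumours and fell by 2.54 ± 0.38 (SE, adjusted p = 1.4e-05) from a mean of 13.46. Slc1a2 stood at 7.56, 8.85 and 9.58 and fell by 2.80 ± 0.62 (SE, adjusted p = 0.000974). Cyp2e1, Glul and Rgn were the weakest of the calls, with -1.76 ± 0.64 (SE, adjusted p = 0.0331), -1.39 ± 0.49 (SE, adjusted p = 0.0305) and -1.38 ± 0.50 (SE, adjusted p = 0.0317). These 3 calls ended without CD8kMup HCC 3 (adjusted p from 0.142 to 0.209), without any other single library of the 2 groups except CD8kMup HCC 8, after quantile normalization, and with no filter on low values. Against NC livers of their own genotype, MupHe tumours and IgAkMup tumours also had 10 of 10 genes lower without overlap, against 19.5% and 22.1% of all genes called lower and 17.6% and 21.5% lower without overlap. The NC and HCC libraries carry different tags in their column names, Tri NC and SS H, which the labels do not explain. The tumours also came from mice on HFD, and the NC livers are not labelled so. Tag, diet and stage therefore cannot be told apart in these contrasts.

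**Figure D2:**
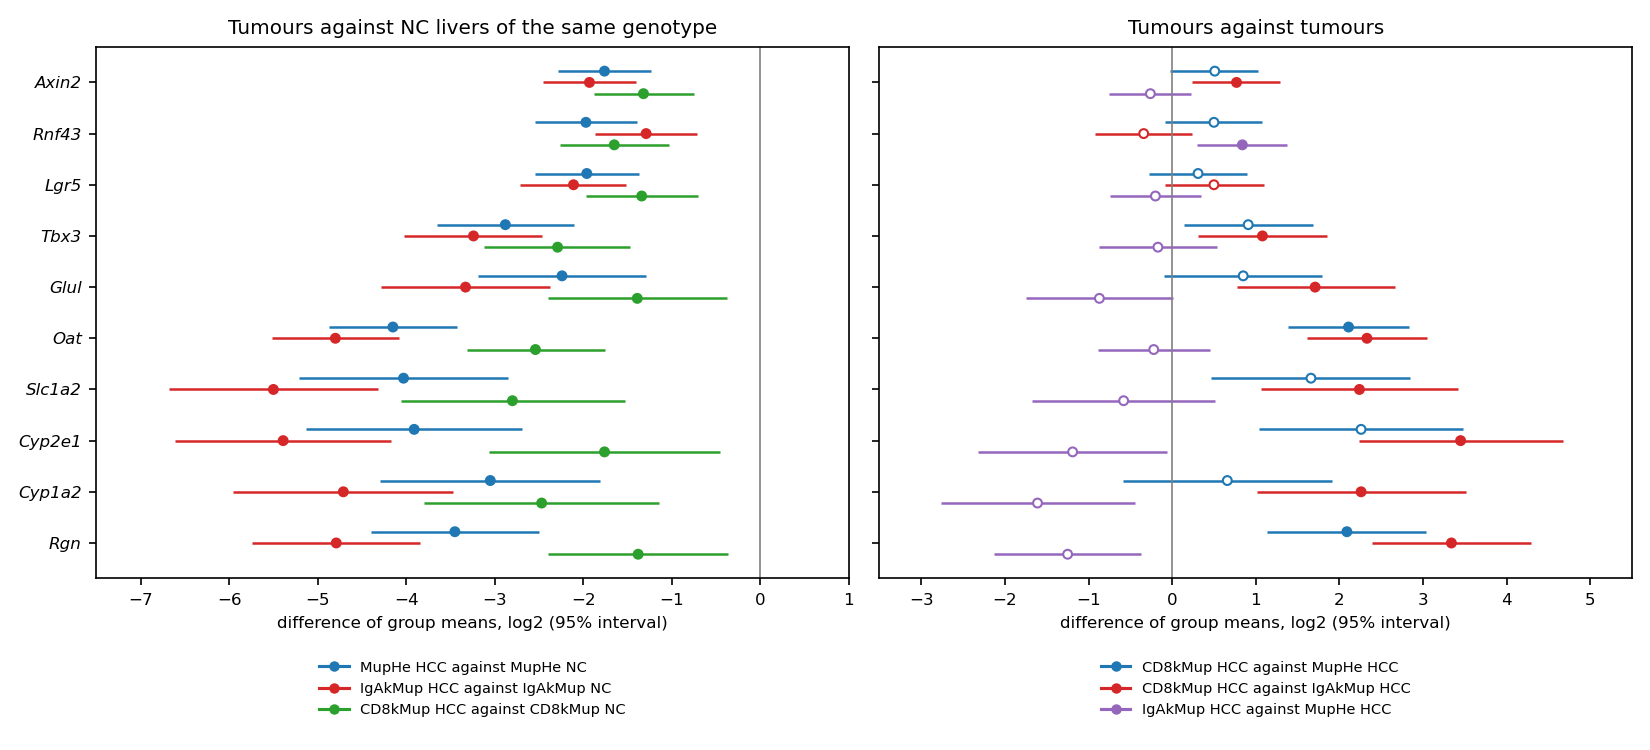
Difference of group means on the log2 scale (x axis) for each of the 10 genes (y axis), with 95% intervals from limma. Filled points passed an adjusted p of 0.05. Left, tumours against NC livers of the same genotype, where every point lies below 0. Right, tumours against tumours, where 8 of the 10 genes passed between CD8kMup and IgAkMup.

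Tumours of the genotypes were then set against each other, within libraries that share the SS H tag. CD8kMup tumours had 8 of the 10 genes higher than IgAkMup tumours, against 11.8% of all genes called higher, and in 7 of the 10 every CD8kMup tumour was above every IgAkMup tumour, as was so for 12.2% of all genes. Cyp2e1 was 13.29, 14.34 and 14.69 in CD8kMup tumours, whereas the highest IgAkMup tumour had 12.18. The difference of 3.45 ± 0.59 (SE, adjusted p = 0.000318) was the largest of the 10. Rgn was 11.59, 12.27 and 12.48 against a highest value of 9.54, a difference of 3.34 ± 0.46 (SE, adjusted p = 4e-05). Oat was higher by 2.33 ± 0.35 (SE, adjusted p = 9.83e-05), Cyp1a2 by 2.26 ± 0.61 (SE, adjusted p = 0.0089) and Slc1a2 by 2.24 ± 0.58 (SE, adjusted p = 0.00692). Glul was higher by 1.71 ± 0.46 (SE, adjusted p = 0.00912), with 11.28, 12.30 and 13.04 in CD8kMup tumours and 1 IgAkMup tumour, at 12.16, among them. Smaller differences were found for Tbx3, at 1.08 ± 0.38 (SE, adjusted p = 0.0383), and Axin2, at 0.77 ± 0.26 (SE, adjusted p = 0.0327). Both had lower values than the other genes called here, and an rlog transform can make the differences of weakly expressed genes too small. Lgr5 (0.50 ± 0.29 SE, adjusted p = 0.207, 95% interval -0.09 to 1.10) and Rnf43 (-0.34 ± 0.28 SE, adjusted p = 0.395, 95% interval -0.92 to 0.24) did not pass. The main fit shares 1 estimate of the spread per gene over all 11 groups, and the livers in it varied less than the tumours. When the CD8kMup and IgAkMup tumours were fitted alone, 2 of the 10 genes passed, Oat and Rgn. Leaving out CD8kMup HCC 8 left 4 and leaving out CD8kMup HCC 4 left 5.

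Several other lists moved with this difference. Of 20 further pericentral hepatocyte genes 11 were higher and 0 lower in CD8kMup than in IgAkMup tumours, with a median difference of 1.53. Periportal genes were higher for 11 of 21 and lower for 0, with a median of 0.94. Of 12 hepatocyte genes without strong zonation 1 was higher and 2 lower, where 11.8% of all genes were higher and 11.2% lower. Lymphocyte markers were lower for 3 of the 5 kept, and of 9 endothelial markers 3 were lower and 1 higher. Of 6 markers of Kupffer cells, the resident macrophages of the liver, 4 were called higher in CD8kMup than in IgAkMup tumours, and their summed level ran from 11.67 to 12.17 in the former and from 8.86 to 11.29 in the latter, with no marker at 0 in every library. The summed level of 12 hepatocyte genes without strong zonation ran from 19.70 to 19.82 and from 19.70 to 20.95. The part of other cell types in the difference was not tested.

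CD8kMup tumours against MupHe tumours had 2 genes higher, against 0.705% of all genes. These were Oat, by 2.11 ± 0.35 (SE, adjusted p = 0.00436), and Rgn, by 2.09 ± 0.46 (SE, adjusted p = 0.0247). Cyp2e1 was next, at 2.26 ± 0.59 (SE, adjusted p = 0.0517). The count depended on single tumours, with 6 genes without MupHe HCC 2, 1 without MupHe HCC 7, and 0 without CD8kMup HCC 4 or without CD8kMup HCC 8. When the CD8kMup and MupHe tumours were fitted alone, neither Oat (limma adjusted p = 0.836) nor Rgn (limma adjusted p = 0.854) passed. Between IgAkMup and MupHe tumours, Rnf43 was the 1 gene called, higher in IgAkMup by 0.84 ± 0.26 (SE, adjusted p = 0.0402), where 4.12% of all genes were called higher. The call for Rnf43 ended without MupHe HCC 2 (adjusted p = 0.0517), without MupHe HCC 4 (adjusted p = 0.211), and without any 1 of IgAkMup HCC 5, 7 and 9. It also ended when the IgAkMup and MupHe tumours were fitted alone (limma adjusted p = 0.634). Without MupHe HCC 3, 5 genes passed in this comparison, of which Cyp2e1, Cyp1a2, Glul and Rgn were lower in IgAkMup, and without IgAkMup HCC 8, 3 genes passed.

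The tumours differed among themselves more than the livers did. The median over the 10 genes of the SD within a group was 1.01 in MupHe HCC, 0.66 in IgAkMup HCC and 0.57 in CD8kMup HCC, and in the other 8 groups it ran from 0.08 to 0.50. MupHe HCC 2 was among the highest 3 of the 11 tumours for 8 genes, CD8kMup HCC 4 for 9 and CD8kMup HCC 8 for 8. At the other end, MupHe HCC 3 was among the lowest 3 for 9 genes, and IgAkMup HCC 7 and IgAkMup HCC 9 for 7 each. High and low tumours were thus found within the MupHe group itself. Measured against the lowest of the 24 other libraries, all 11 tumours were lower for Cyp2e1, Oat, Rgn and Tbx3, 10 for Slc1a2, 9 for Glul, Axin2 and Lgr5, 7 for Cyp1a2 and 2 for Rnf43. Of all genes tested, 1.62% had all 11 tumours below every other library, 5.31% at least 9, 10.4% at least 7 and 39.2% at least 2.

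**Figure D3:**
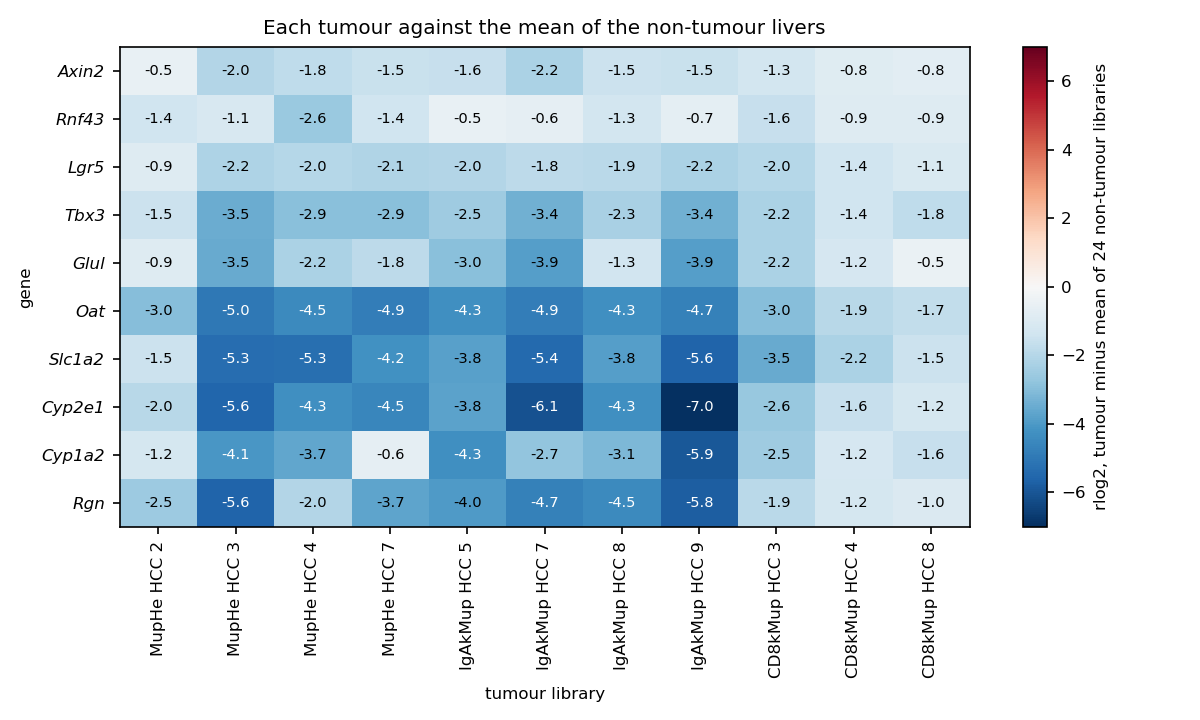
rlog2 values of the 10 genes (rows) in each of the 11 tumours (columns), shown as the difference from the mean of the 24 libraries of livers without tumour (colour and number, log2 scale). MupHe HCC 2, CD8kMup HCC 4 and CD8kMup HCC 8 are nearest to the livers for most genes, and Rnf43 has the palest shading of the 10 over the 4 IgAkMup tumours.

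A set of 3 tumours lay apart from the others on the second principal component of all kept genes, which held 12.6% of the variance. MupHe HCC 3, IgAkMup HCC 5 and IgAkMup HCC 9 scored from 28.4 to 35.6, and the other 8 from -24.7 to 5.1. Without these 3, all 10 genes were still called lower in HCC than in NASH over both genotypes, 9 of 10 in each genotype, and 6 of 10 were higher in CD8kMup than in IgAkMup tumours. Relations between genes were computed over the other 8 tumours only, because these 3 lay apart on that component. In all, 17 pairs with Axin2 or Glul were computed, with exact two-sided permutation p-values adjusted over the 17.

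Across those 8 tumours, Pearson's r with Axin2 passed an adjusted p of 0.05 for Slc1a2, Cyp2e1, Tbx3, Oat, Glul and Lgr5. It did not pass for Rgn, Cyp1a2 and Rnf43. The share of all genes that would pass with Axin2 or Glul was not computed. Whether the listed genes follow Axin2 or Glul more closely than other genes do was therefore not tested. With Slc1a2, Pearson's r was 0.97 (exact permutation p = 4.96e-05, adjusted p = 0.000843) and Spearman's rho 0.98 (exact permutation p = 0.000397, adjusted p = 0.00675). It was 0.98 without the 2 tumours farthest from the median Axin2 and 0.98 for deviations from the genotype means. With Cyp2e1, r was 0.95 (exact permutation p = 0.000744, adjusted p = 0.00562) and rho 0.86 (exact permutation p = 0.0107, adjusted p = 0.026), with 0.96 without the 2 tumours and 0.97 within genotypes. With Tbx3, r was 0.95 (exact permutation p = 0.000992, adjusted p = 0.00562). Glul was also related to Axin2, with r = 0.88 (exact permutation p = 0.00367, adjusted p = 0.0125). For Oat, r was 0.84 (exact permutation p = 0.0118, adjusted p = 0.0251), and for Lgr5 it was 0.80 (exact permutation p = 0.0196, adjusted p = 0.0371), where Spearman's rho, 0.64, did not pass (exact permutation p = 0.0962, adjusted p = 0.149). For Rnf43, r was 0.12 with Axin2 (exact permutation p = 0.786, adjusted p = 0.835) and 0.02 with Glul (exact permutation p = 0.964). Without the 2 tumours farthest from the median of Axin2, r for Rnf43 and Axin2 was 0.80, and without the 2 farthest from the median of Glul, r for Rnf43 and Glul was 0.70, so the low values rested on those tumours. For Cyp1a2 and Axin2, r was 0.59 (exact permutation p = 0.127, adjusted p = 0.157). For Rgn and Axin2 it was 0.69 (exact permutation p = 0.0638, adjusted p = 0.0986) and 0.27 for deviations from the genotype means. The relation of Glul to Cyp2e1, r = 0.83 (exact permutation p = 0.00821, adjusted p = 0.0199), fell to 0.51 without the 2 tumours farthest from the median Glul and rested on them. Glul and Slc1a2 gave r = 0.86 (exact permutation p = 0.00223, adjusted p = 0.00949), and 0.82 without those 2 tumours. Glul and Tbx3 gave r = 0.83 (exact permutation p = 0.00697, adjusted p = 0.0197), and 0.78 without them. Spearman's rho for Glul and Tbx3, 0.79, did not pass (exact permutation p = 0.0279, adjusted p = 0.0528). Pearson's r of Glul did not pass for Oat, Lgr5, Rgn, Cyp1a2 and Rnf43.

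**Figure D4:**
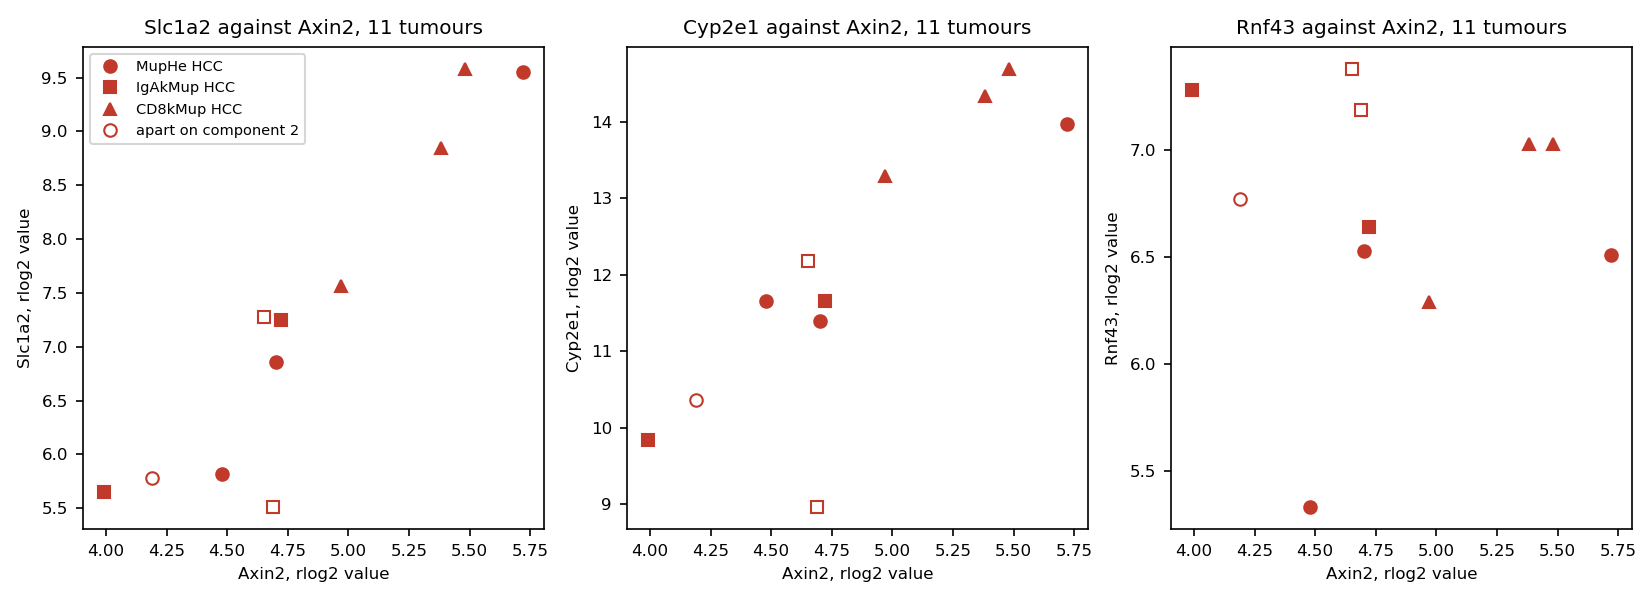
rlog2 values of Slc1a2, Cyp2e1 and Rnf43 (y axes) against Axin2 (x axes) in the 11 tumours, with a symbol for each genotype. The 3 tumours apart on the second principal component are open symbols and were left out of r, and the 8 filled symbols give r = 0.97 for Slc1a2, 0.95 for Cyp2e1 and 0.12 for Rnf43, the last of which is 0.80 without the 2 tumours farthest from the median Axin2.

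Among the ligands, Wnt2, Rspo3 and Wnt9b were lower in these tumours as well. In HCC against NASH over both genotypes, Wnt2 fell by 1.68 ± 0.14 (SE, adjusted p = 3.37e-10), Rspo3 fell by 1.51 ± 0.17 (SE, adjusted p = 2.84e-08) and Wnt9b fell by 0.77 ± 0.12 (SE, adjusted p = 6.87e-06). For Wnt2 the NASH livers ran from 5.14 to 5.84. MupHe tumours had Wnt2 at 4.33, 3.54, 3.79 and 4.27, and IgAkMup tumours at 3.73, 3.67, 3.94 and 3.48, all below the livers. For Rspo3 the NASH livers ran from 5.75 to 5.95. Its tumour values were 4.97, 3.87, 4.35 and 4.48 in MupHe and 4.0, 4.61, 4.94 and 3.69 in IgAkMup, again without overlap. Ctnnb1, which encodes beta-catenin, differed by 0.13 ± 0.08 (SE, adjusted p = 0.165) and did not pass. Among 31 ligands, receptors and transducers of the pathway, 29 were kept, 7 were called lower and 7 higher, beside 22.9% and 25.5% of all genes, and their median difference was 0.01. Those called higher included the receptors Fzd5, Fzd6 and Fzd7 and the ligand Wnt5a, by 0.38 to 0.64. Endothelial cells are a source of Wnt2, Wnt9b and Rspo3 in liver. Of 9 endothelial markers 2 were lower, Clec4g at -2.28 ± 0.34 (SE, adjusted p = 3.47e-06) and Stab2 at -1.14 ± 0.25 (SE, adjusted p = 0.000494), and 3 were higher, with Emcn at 1.07 ± 0.13 (SE, adjusted p = 2.16e-07). Their summed level ran from 10.88 to 11.16 in NASH livers and from 10.55 to 11.31 in MupHe and IgAkMup tumours, and no marker was at 0 in every library. The part of endothelial cells in these differences was not tested.

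Feedback and target genes of the pathway other than the members split. Of 15 listed, 10 were kept, 3 were lower and 3 higher, with a median difference of -0.08, so the count in each direction was near the 22.9% and 25.5% of all genes. Notum, a secreted enzyme that inactivates Wnt proteins, fell by 2.39 ± 0.26 (SE, adjusted p = 2.55e-08). Nkd1, an inhibitor of Dishevelled, fell by 1.52 ± 0.13 (SE, adjusted p = 6.55e-10), and the transcription factor Sp5 fell by 0.95 ± 0.11 (SE, adjusted p = 8.3e-08). The genes that rose were Myc, by 1.63 ± 0.19 (SE, adjusted p = 1.11e-07), Sox9, by 1.21 ± 0.19 (SE, adjusted p = 5.72e-06), and the adhesion receptor Cd44, by 0.69 ± 0.17 (SE, adjusted p = 0.00128). Sox9 is also a cholangiocyte marker, and Myc responds to many pathways. Ccnd1, the cyclin often used as a Wnt target, differed by -0.01 ± 0.31 (SE, adjusted p = 0.976).

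CD8kMup tumours had higher levels of Notum, Wnt2 and Rspo3 than IgAkMup tumours, but the pathway lists as a whole did not lie higher. Of the 29 ligands, receptors and transducers kept, 2 were higher (Wnt2 and Rspo3) and 4 lower, with a median difference of -0.18. Of the 10 feedback and target genes kept, 2 were higher (Notum and Sp5) and 0 lower, with a median of -0.31, where 11.8% of all genes were higher and 11.2% lower. Notum was 6.49, 6.66 and 7.31 there, against 4.64, 4.60, 6.53 and 4.28 in IgAkMup tumours, and differed by 1.81 ± 0.37 (SE, adjusted p = 0.0013). Wnt2 was 4.39, 4.56 and 5.02, above every IgAkMup tumour, and differed by 0.95 ± 0.20 (SE, adjusted p = 0.00174). Rspo3 was 4.88, 5.16 and 5.56, and differed by 0.89 ± 0.23 (SE, adjusted p = 0.00786), with 1 IgAkMup tumour, at 4.94, among them. Against CD8kMup NC livers, Wnt2 differed by -0.15 ± 0.22 (SE, adjusted p = 0.623) and Rspo3 by -0.60 ± 0.25 (SE, adjusted p = 0.0632), which did not pass. Wnt9b, Nkd1 and Notum did pass there, with differences of -0.73 ± 0.18 (SE, adjusted p = 0.00289), -1.19 ± 0.20 (SE, adjusted p = 7.13e-05) and -1.28 ± 0.39 (SE, adjusted p = 0.0134).

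**Figure D5:**
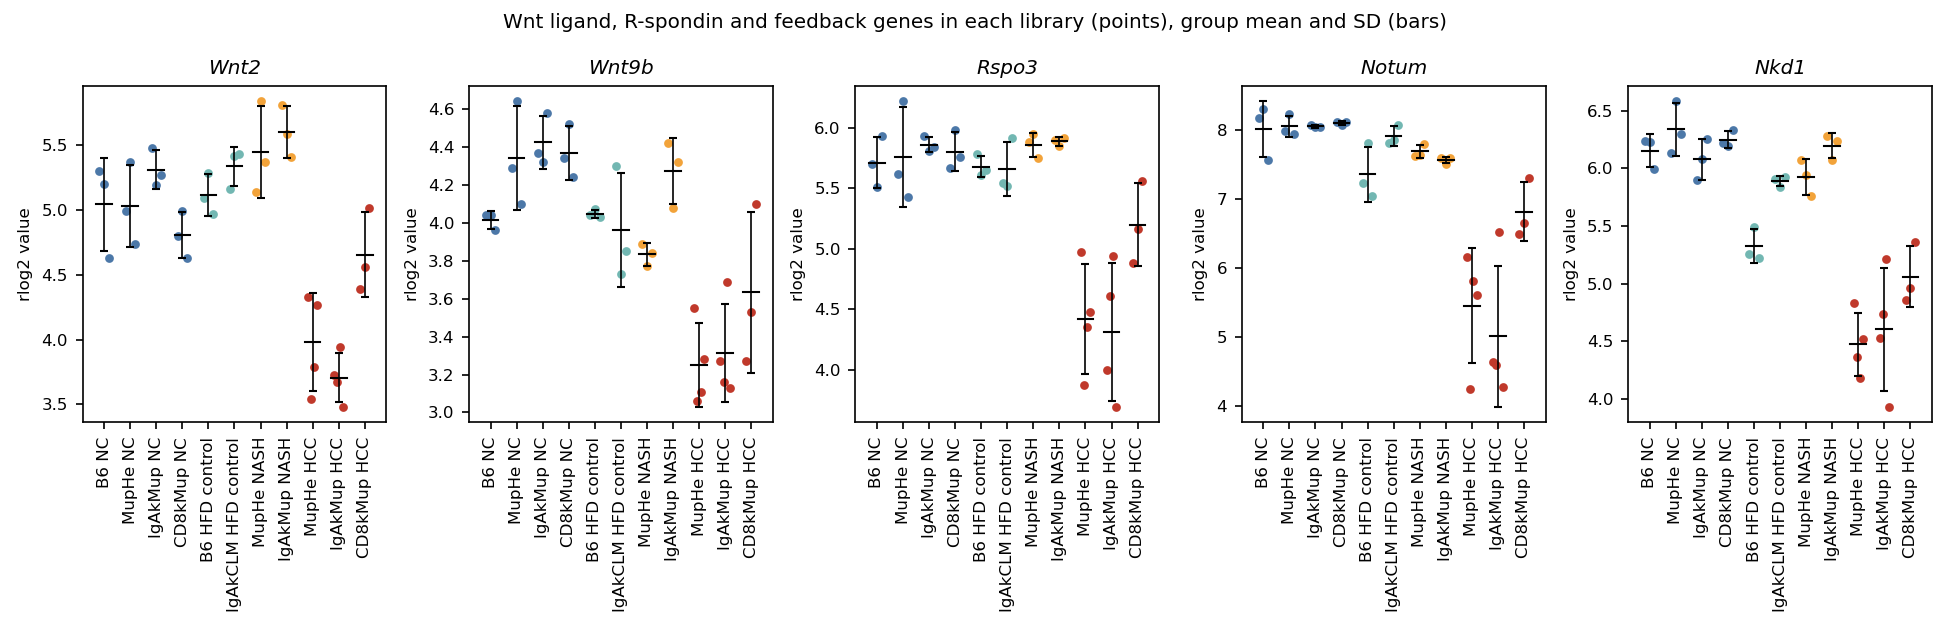
rlog2 value (y axis) of Wnt2, Wnt9b, Rspo3, Notum and Nkd1 in every library (points), by group (x axis), with group mean and SD as bars. MupHe and IgAkMup tumours lie below the NASH livers for each of the 5 genes, and CD8kMup tumours lie higher than IgAkMup tumours on average.

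Other zonated genes gave the setting for these changes. Of 20 further pericentral hepatocyte genes, 16 were lower and 2 higher in HCC than in NASH over both genotypes, with a median difference of -2.11, where 22.9% of all genes were lower and 25.5% higher. The largest falls were in 3 P450 genes, with differences of -4.69 ± 0.35 (SE, adjusted p = 3.34e-11) for Cyp2c50, -4.54 ± 0.43 (SE, adjusted p = 1.85e-09) for Cyp2c29 and -4.33 ± 0.36 (SE, adjusted p = 2.08e-10) for Cyp2c37. These 3 belong to a family of close copies, so reads may have been shared among them and single values are uncertain. The 2 that rose were the glutathione transferases Gstm3, by 1.82 ± 0.32 (SE, adjusted p = 3.97e-05), and Gstm2, by 0.71 ± 0.19 (SE, adjusted p = 0.00324). Of 21 periportal genes, 13 were lower and 5 higher, with a median of -0.92. Pck1, a key enzyme of gluconeogenesis, fell by 3.01 ± 0.28 (SE, adjusted p = 1.4e-09). Cyp2f2, a periportal P450, fell by 1.52 ± 0.34 (SE, adjusted p = 0.000495), with -0.10 in MupHe, which did not pass, and -2.93 in IgAkMup. Of 12 hepatocyte genes without strong zonation, 3 were lower and 1 higher, with a median of -0.02, and Alb, albumin, differed by -0.06 ± 0.31 (SE, adjusted p = 0.895). The count of lower genes among the unzonated ones was thus near the share over all genes and the counts in both zonated lists were above it, although no test compared the lists. All 8 cell division genes were higher, with Top2a at 1.23 ± 0.20 (SE, adjusted p = 1e-05). Kupffer markers were lower for 5 of 6, with Marco at -3.33 ± 0.28 (SE, adjusted p = 2.57e-10).

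Among livers without tumour, few of the 10 genes passed the test. The fit gave each gene 1 estimate of the spread over all 11 groups, tumours included. The median SD of the 10 genes within a group ran from 0.57 to 1.01 in tumours and from 0.08 to 0.50 in livers. The SEs of the liver comparisons therefore carry the larger spread of the tumours, which makes these tests harder to pass. The NASH livers came from MupHe and IgAkMup mice and the HFD controls from B6 and IgAkCLM mice, so that stage and genotype cannot be told apart in their comparisons. In NASH against HFD control over both genotypes, none passed in limma, where 1.32% of all genes did, and none had an unadjusted p under 0.05, where 12.2% of all genes did. The largest difference was 0.56 ± 0.35 (SE, adjusted p = 0.552, 95% interval -0.16 to 1.28), in Glul. In MupHe NASH against IgAkCLM HFD control, which share the Tri N tag, none passed, against 0.559% of all genes, and none had an unadjusted p under 0.05, against 10.2%. For Cyp2e1, Cyp1a2 and Rgn every NASH liver was below every control there, as for 15.1% of all genes, and the other 7 genes overlapped. In IgAkMup NASH against B6 HFD control, which share the SS N tag, none passed, against 0.251% of all genes, while 4 had an unadjusted p under 0.05, against 7.55% of all genes. In 6 of the 10 every NASH liver was above every control, as it was for 10.1% of all genes. The difference between these 2 contrasts passed for none of the 10, against 0.0567% of all genes, and 1 gene, Rnf43, had an unadjusted p under 0.05, against 4.57%.

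The B6 HFD control livers were low for several of these genes. Against B6 NC livers, 4 were called lower, where 11% of all genes were. Rnf43, at 6.84, 7.38 and 6.47, fell by 1.19 ± 0.30 (SE, adjusted p = 0.00605), and Tbx3, at 6.92, 6.85 and 6.87, fell by 1.31 ± 0.40 (SE, adjusted p = 0.0211). Axin2, at 5.45, 5.52 and 5.48, fell by 0.87 ± 0.28 (SE, adjusted p = 0.0255), and Cyp1a2, at 10.61, 11.21 and 9.94, fell by 1.81 ± 0.65 (SE, adjusted p = 0.0479). These calls rested on single libraries. No gene was called without B6 NC 1 or without B6 HFD control 3, and 1 was called without B6 NC 2 or without B6 HFD control 1, while without B6 HFD control 2 there were 5. With IgAkCLM HFD control in place of B6 HFD control, none was called, and the differences were -0.73 for Cyp1a2, -0.17 for Axin2, -0.25 for Rnf43 and -0.48 for Tbx3. The first HFD group carries the SS N tag, the second Tri N, and the NC livers Tri NC. Diet and tag therefore cannot be told apart in B6 HFD control against B6 NC, nor genotype and tag between the 2 HFD groups. Set against each other, a comparison added after the values were seen, IgAkCLM HFD control was above B6 HFD control without overlap in 6 of the 10 genes (Cyp1a2, Oat, Axin2, Rnf43, Tbx3 and Slc1a2), as it was for 16.1% of all genes. None passed in limma, against 5.16% of all genes, and 4 had an unadjusted p under 0.05, against 21.2%. The call depended on how the spread was estimated. With the 2 groups fitted alone, Axin2 (adjusted p = 0.0414), Tbx3 (adjusted p = 0.0432) and Slc1a2 (adjusted p = 0.0433) passed in limma, and with array weights all 6 of these genes did, with adjusted p from 0.00347 for Rnf43 to 0.0465 for Tbx3.

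In MupHe NASH against MupHe NC and IgAkMup NASH against IgAkMup NC none of the 10 passed, against 1.93% and 12.9% of all genes, with 1 gene each at an unadjusted p under 0.05, against 13.8% and 26.6%. These were Cyp1a2 in MupHe, at -1.46 ± 0.65 (SE, adjusted p = 0.300), and Rnf43 in IgAkMup, at -0.71 ± 0.30 (SE, adjusted p = 0.128). With the 2 groups fitted alone, some genes passed in limma. In MupHe these were Cyp1a2 (adjusted p = 4.94e-05) and Rnf43 (-0.62, adjusted p = 0.00496). In IgAkMup they were Cyp1a2 (-0.94, adjusted p = 0.000374), Rnf43 (adjusted p = 0.000894) and Slc1a2 (-0.77, adjusted p = 0.000366). The same genes passed with array weights, with adjusted p of 0.000671 and 0.018 in MupHe and from 0.00115 to 0.0257 in IgAkMup. In each of these the NASH livers were all below the NC livers, as for 18.4% of all genes in MupHe and 22.3% in IgAkMup. In IgAkMup, Glul and Rgn were higher without overlap, as were 22.6% of all genes. The NC and NASH libraries also carry different tags, and the HFD label is given to the NASH livers only, so that tag, diet and stage cannot be told apart. Among the NC livers, none of the 10 passed between MupHe and B6, IgAkMup and MupHe, or CD8kMup and MupHe, where 0.0486%, 0.0162% and 0.0162% of all genes passed, and none had an unadjusted p under 0.05. The spread over the 12 NC libraries differed from gene to gene. Cyp2e1 ran from 15.40 to 16.13, Glul from 13.14 to 13.88 and Rgn from 13.26 to 13.63, with B6 NC 3 the lowest for Cyp2e1 and Glul. Tbx3 ran from 7.24 to 8.96, Slc1a2 from 10.47 to 11.98, Oat from 12.57 to 13.86 and Rnf43 from 7.25 to 8.51. B6 NC 3 was again the lowest for each of these, so the lower ends for Tbx3, Slc1a2 and Rnf43 rest on that library. For Oat, MupHe NC 3 was close to it, at 12.60. For Rnf43 the next lowest NC library was at 8.25. IgAkMup NC was above MupHe NC without overlap for Cyp2e1, Oat, Rnf43 and Slc1a2, as it was for 9.52% of all genes, and Slc1a2 passed there with the 2 groups fitted alone (0.89, limma adjusted p = 0.00597).

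The genes outside the list whose pattern was most like that of Glul, by Pearson's r over the 35 libraries, were Notum (0.95), Nat8f2 (0.946), Cyp2c29 (0.941), Lhpp (0.940) and Rspo3 (0.934). After the group means were removed, r was 0.896 for Notum, 0.929 for Cyp2c29 and 0.733 for Rspo3. For Cyp2e1 the most alike were Pon1 (0.976), Lhpp (0.968), Slc25a21 (0.963), Cyp2c29 (0.961) and Nxpe2 (0.959). For Axin2 they included Cyp2c50 (0.935), Lin7a (0.929), Hsd3b2 (0.921) and Cyp2c54 (0.917), where the r within groups fell to between 0.373 and 0.581. These values are descriptions over libraries that share the gap between tumours and livers.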

How the data were processed

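Values are on a log2 scale and were deposited by the authors as regularized log2 (rlog2) values in 1 table of 24511 genes and 41 columns. Per the submitters' processing notes, STAR was named for all samples, Cuffdiff for the HFD samples and HOMER and DESeq2 for the NC samples, with the mm10 genome and no versions. Which program made the rlog2 values, and whether the NC and HFD libraries went through it together, is not given in the sources used here. An rlog transform pulls low counts towards the mean of the gene, which can make the differences of weak genes such as Lgr5 too small. Per the labels' protocols, libraries came from a stranded mRNA kit, and RNA from AllPrep columns or Trizol. No counts were used, so depth is unknown and no counting interval is given.

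Columns were matched to groups by name. In all, 6 columns matched 2 groups at once, CD8kMup NASH and CD8kCLM HFD control, and were not used. Libraries of HFD mice carry the number that ends their column name, and NC libraries the replicate number of their title.

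The 12337 genes whose mean reached 3 were fitted in 1 linear model over 11 groups with limma 3.58.1 over 35 libraries (eBayes with trend, two-sided, Benjamini-Hochberg adjustment over all kept genes, called at 0.05). The fit was tested on simulated data. Analyses used R 4.3.3, Python 3.11.15 and scipy 1.17.1. A list's summed level is the log2 of the sum of its genes' values after undoing the log. Promoter windows came from RefSeq on GRCm38.p6. Alternatives were no filter, a mean of at least 5, median centring, quantile normalization, the compared groups alone, array weights, robust moderation, leaving out each library in turn, exchanged NASH or HFD groups, a replicate block for the NC groups and, chosen after seeing the data, leaving out the 3 tumours that lie apart. The 10 genes are named throughout. From each other list the 3 genes with the largest called change in HCC against NASH and 10 set genes could be named, and for likeness the 5 genes with the highest r, of which 1 for Axin2 is not reported here. Sp5, Cd44, Gstm2, Gstm3, Fzd5, Fzd6, Fzd7 and Wnt5a fall outside this rule and were named after their values were seen. The genes and lists were chosen with earlier results of these data known.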

Additional observations from a re-analysis of the deposited data

Results flagged for a closer look

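Of 20 sets of 4 tumours examined (10 genes in MupHe HCC and in IgAkMup HCC), 2 held a tumour far from the other 3 by Dixon's criterion, and chance gives about 1 in 20. Axin2 in IgAkMup HCC 7 was 3.99, below the other 3 tumours of its group, which lay between 4.65 and 4.72. Lgr5 in MupHe HCC 2 was 4.85, above the other 3, which lay between 3.59 and 3.79.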

How the results depend on the processing

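Over all comparisons, 3272 alternative values of single genes were computed. Of these, 3124 kept their side of the threshold, 60 passed newly, 88 no longer passed and none that was called changed sign. Changes of sign among values that were not called were not counted. The 10 calls in HCC against NASH over both genotypes held under every alternative run. With the compared groups fitted alone, the number of genes called became 1 in NASH against HFD control (Glul), 1 in IgAkMup NASH against B6 HFD control, 2 in MupHe NASH against MupHe NC, 3 in IgAkMup NASH against IgAkMup NC, 1 in IgAkMup NC against MupHe NC, 0 in IgAkMup and in CD8kMup HCC against MupHe HCC, 3 in IgAkCLM against B6 HFD control, and 2 in CD8kMup against IgAkMup HCC. With array weights it became 3 in the difference of the IgAkMup and MupHe tumour contrasts, 1 in NASH against HFD control, 2 in IgAkMup NASH against B6 HFD control, 2 in MupHe NASH against MupHe NC, 3 in IgAkMup NASH against IgAkMup NC and 6 in IgAkCLM against B6 HFD control. Without a filter, Rnf43 was lost between IgAkMup and MupHe HCC, leaving 0. With the HFD group exchanged, 0 genes were lower than in B6 NC. Without the 3 tumours apart on the second component, 1 gene was called in the difference of contrasts and 2 between IgAkMup and MupHe HCC. Leaving out each library in turn gave 0 to 5 genes for B6 HFD control against B6 NC, 0 to 3 for the difference of contrasts, 0 to 5 for IgAkMup against MupHe HCC, 0 to 6 for CD8kMup against MupHe HCC and 4 to 8 for CD8kMup against IgAkMup HCC. The cause of these changes was not tested. The fits of compared groups alone and without a library also held fewer samples, and the part of that was not tested either. Quantile normalization moved the lower share of called genes from 59.3% to 48.1% in IgAkMup against MupHe HCC and from 51.9% to 41.0% in the difference of contrasts, and the median of all genes moved by less than 0.1.

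The replicate numbers of the NC titles were checked as pairs. Over 18 same-numbered pairs, the correlation of deviations from the group means ran from -0.21 to 0.23, with 3 over 0.1, and 5 of 12 libraries correlated best with their own number, so the numbers were not taken to pair samples. With the number as a replicate block, 0 of the 10 genes were called in each NC comparison, as without it. Depth is unknown, so the precision of weakly expressed genes such as Lgr5, Axin2 and Wnt9b cannot be given.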
